A study of Mus musculus with 20 samples.

Results

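The genes described here encode 10 chains of cytokine receptors that do not bind interleukin-2. They were chosen by name: Il4ra, Il6ra, Il6st, Il10ra, Il21r, Il27ra, Il18r1, Il18rap, Ifngr1 and Ifngr2. All 10 were found among the 49315 gene IDs of the count table and passed the filter on low counts, which kept 28082 genes in all. Bulk RNA was sequenced from mouse splenic CD4+ T effector cells that had been sorted as CD25-negative. In the CKO mice a floxed Pcbp2 gene, which encodes a poly(C)-binding RNA-binding protein, was deleted with a Cre recombinase under CD4 control, and the CTL mice were control littermates whose alleles the labels do not spell out. That driver also acts in CD8 T cells and regulatory T cells, because T cell precursors pass through a CD4-positive stage in the thymus. There were 3 CKO and 5 CTL libraries from cells frozen after 6 h with beads that engage CD3 and CD28, and 6 CKO and 6 CTL libraries from unstimulated cells (0 h). No group was cultured for 6 h without beads, so the effect of the beads and that of culture cannot be told apart. Ages are not given in the labels.

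Cytokine receptors of this kind have no kinase activity of their own and signal as pairs. The IL-4, IL-6, IL-10, IL-21, IL-27 and interferon-gamma receptors use Janus kinases (JAK) bound to their tails, which phosphorylate STAT transcription factors, whereas the IL-18 receptor signals through MyD88 and IRAK kinases. In CD4 T cells these inputs steer the choice between helper fates. IL-4 favours Th2 cells, IL-6 and IL-21 favour Th17 and follicular helper cells, interferon-gamma and IL-18 favour Th1 cells, and IL-10 and IL-27 restrain responses. In bulk RNA, fewer cells that carry a transcript and less of the transcript per cell cannot be told apart.

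Total counts lay between 62.4 M and 85.6 M in 19 libraries and at 26.4 M in the CTL 6 h library 4.24. That shallow library had the lowest CPM of the 5 CTL 6 h libraries for 9 of the 10 receptors (all but Ifngr2). Levels are given as CPM, in which each count is scaled by the library's TMM-adjusted total, and between genes as CPM per kilobase (kb) of exons. The CTL 6 h library 4.24 differed in more than depth. It had the highest TMM factor (1.37) and, despite its low total, the highest median count per gene (28) of the 20 libraries. Pcbp2 itself averaged 8.72 ± 2.24 CPM in CKO cells at 6 h (SD, n = 3) and 322 ± 34.5 CPM in CTL cells (n = 5), and 17.0 ± 3.39 CPM in CKO cells at 0 h and 333 ± 46.9 CPM in CTL cells (n = 6 each). The CKO 0 h libraries 4.24 and 5.6 are labelled male but had 1160 and 1350 CPM of Xist, the female-specific RNA, and under 0.3 CPM of the Y-linked gene Ddx3y. Every CKO 0 h library is labelled male, while the CTL 0 h libraries 4.24, 5.6 and 10.28 are labelled female. Labelled sex and genotype are thus partly confounded at 0 h. The CKO library 5.6 is labelled male at 0 h and female at 6 h. The fits below carry the sex as labelled, and sex read from Xist was run as an alternative. Of 7 T cell marker genes, Cd4 and Cd3e among them, none was at 0 counts in any library. The B cell markers summed to 17.2 to 71.8 CPM in CKO and 14 to 21.9 CPM in CTL libraries at 6 h, and the myeloid markers to 9.74 to 43.3 CPM in CKO and 8.04 to 20.8 CPM in CTL libraries.

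The receptor genes sit at 8 places in the genome (GRCm38, GENCODE M21 gene bounds). Il4ra (chr7:125552120-125579474) and Il21r (chr7:125603429-125633570) are neighbours on the plus strand of chromosome 7, 23954 bases apart with no annotated gene between them. Il18r1 (chr1:40465552-40500854) and Il18rap (chr1:40515362-40551705) are neighbours on the plus strand of chromosome 1, 14507 bases apart, again with no gene between them. Il6ra lies on the minus strand at chr3:89864059-89913196, Il6st at chr13:112464070-112510086, Il10ra on the minus strand at chr9:45253837-45269149 and Il27ra on the minus strand at chr8:84030294-84042589. The interferon-gamma receptor genes Ifngr1 (chr10:19591949-19610229) and Ifngr2 (chr16:91547072-91565623) lie on different chromosomes. Il4ra shares 571 exon bases with the antisense gene Gm44876 and Il6ra shares 242 with Gm42809. Whether reads were counted by strand is not stated, so counts from those stretches are uncertain. Gm44876 held at most 101 counts and Gm42809 at most 738 counts in any library, or 1.36 and 10.8 CPM.

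The promoters of 4 receptors are shown because the results below turn on these genes: Ifngr1 and Il4ra rose with stimulation, Il21r is the neighbour of Il4ra and fell, and Il6ra is the receptor called between genotypes. Each runs 5′ to 3′ on the gene's strand from 250 bases before the start to 50 bases after it (RefSeq, GRCm38.p6), and capitals mark CpG dinucleotides. The windows are chr10:19591699-19591998, chr7:125552021-125552320, chr7:125603179-125603478 and, on the minus strand, chr3:89913147-89913446. The GENCODE start of Il4ra (125552120) lies upstream of the RefSeq start used and inside the window. Part of the 250 bases before the Il4ra start is thus within the gene by the GENCODE bounds.
Ifngr1: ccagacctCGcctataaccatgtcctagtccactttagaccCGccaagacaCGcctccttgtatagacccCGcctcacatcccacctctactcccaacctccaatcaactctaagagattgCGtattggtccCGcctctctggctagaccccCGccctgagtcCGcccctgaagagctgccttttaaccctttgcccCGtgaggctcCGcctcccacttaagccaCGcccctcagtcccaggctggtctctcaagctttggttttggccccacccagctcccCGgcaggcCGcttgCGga
Il4ra: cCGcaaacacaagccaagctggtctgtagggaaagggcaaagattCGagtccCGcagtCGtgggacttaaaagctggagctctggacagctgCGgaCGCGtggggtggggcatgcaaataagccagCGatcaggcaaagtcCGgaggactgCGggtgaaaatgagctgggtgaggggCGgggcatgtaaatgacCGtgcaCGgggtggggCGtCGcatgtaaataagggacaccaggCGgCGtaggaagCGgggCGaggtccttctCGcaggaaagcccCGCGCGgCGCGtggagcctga
Il21r: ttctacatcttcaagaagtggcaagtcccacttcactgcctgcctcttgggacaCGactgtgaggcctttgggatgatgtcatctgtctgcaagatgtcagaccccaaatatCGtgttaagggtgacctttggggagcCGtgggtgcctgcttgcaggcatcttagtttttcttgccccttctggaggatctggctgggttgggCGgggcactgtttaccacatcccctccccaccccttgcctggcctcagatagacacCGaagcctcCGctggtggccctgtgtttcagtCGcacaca
Il6ra: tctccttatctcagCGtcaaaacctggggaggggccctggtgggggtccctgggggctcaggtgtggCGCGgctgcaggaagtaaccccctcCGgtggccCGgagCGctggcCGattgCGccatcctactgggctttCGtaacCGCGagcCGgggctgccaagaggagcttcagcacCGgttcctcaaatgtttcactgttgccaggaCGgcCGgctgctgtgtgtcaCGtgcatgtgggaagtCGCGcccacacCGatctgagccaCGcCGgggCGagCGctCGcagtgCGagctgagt
The Ifngr1 window has 14 CpGs, those of Il4ra and Il6ra have 25 each, and that of Il21r has 7, which is also the median of the 32851 windows in the RefSeq table. At least 25 CpGs occur in 18.4% of those windows. Both strands were searched for AP-1 (TGANTCA), GAS or STAT (TTCNNNGAA), STAT6 (TTCNNNNGAA), NFAT core (GGAAAA) and RUNX (TGTGGT) motifs, which occur in 7.81%, 8.3%, 6.95%, 23.4% and 16.8% of all windows. None of the 5 is present in the Ifngr1, Il4ra, Il6ra or Il6st window, and the Il21r window has 1 RUNX match. That RUNX match is the only match in the 4 windows shown. A promoter window was matched for 8 receptors, and Il10ra and Il27ra are named only.

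In unstimulated cells Il27ra and Il21r had the highest levels of the 10. At 0 h Il27ra, the IL-27 binding chain that pairs with gp130, stood first with 101 ± 7.38 CPM per kb in CKO cells and 111 ± 6.22 CPM per kb in CTL cells (SD, n = 6 each). Il21r, which pairs with the common gamma chain, followed with 84.0 ± 7.79 CPM per kb in CKO cells and 85.3 ± 7.46 CPM per kb in CTL cells. In CTL cells the ranges of these neighbours in the order did not overlap, and in CKO cells they did. Il6ra, Il6st, Ifngr1 and Il4ra came next, between 36.2 and 59.0 CPM per kb in CKO cells and between 40.7 and 49.97 CPM per kb in CTL cells, and each overlapped its neighbour in that order. Il18rap was the lowest with 6.20 ± 0.85 CPM per kb in CKO cells and 6.82 ± 2.35 CPM per kb in CTL cells.

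After 6 h the order was led by Ifngr1 and Il4ra. Ifngr1 stood at 185 ± 34.4 CPM per kb in CKO cells (SD, n = 3) and 204 ± 43.3 CPM per kb in CTL cells (n = 5), and Il4ra at 136 ± 46.2 CPM per kb in CKO cells and 116 ± 34.5 CPM per kb in CTL cells. Ifngr1 made up 34.9% of the 10 receptors' summed level in CKO cells at 6 h, against 9.38% at 0 h, and 41.2% in CTL cells at 6 h, against 9.54% at 0 h. The summed level itself was 531 ± 22.4 CPM per kb in CKO cells at 6 h, against 430 ± 13.5 at 0 h, and 497 ± 102 CPM per kb in CTL cells at 6 h, against 444 ± 24 at 0 h. Il27ra followed them at 6 h, with 55.0 ± 3.82 CPM per kb in CKO cells and 47.9 ± 12.2 CPM per kb in CTL cells. Il18rap was again the lowest, at 5.01 ± 0.18 CPM per kb in CKO cells and 4.53 ± 2.26 CPM per kb in CTL cells.

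**Figure D1:**
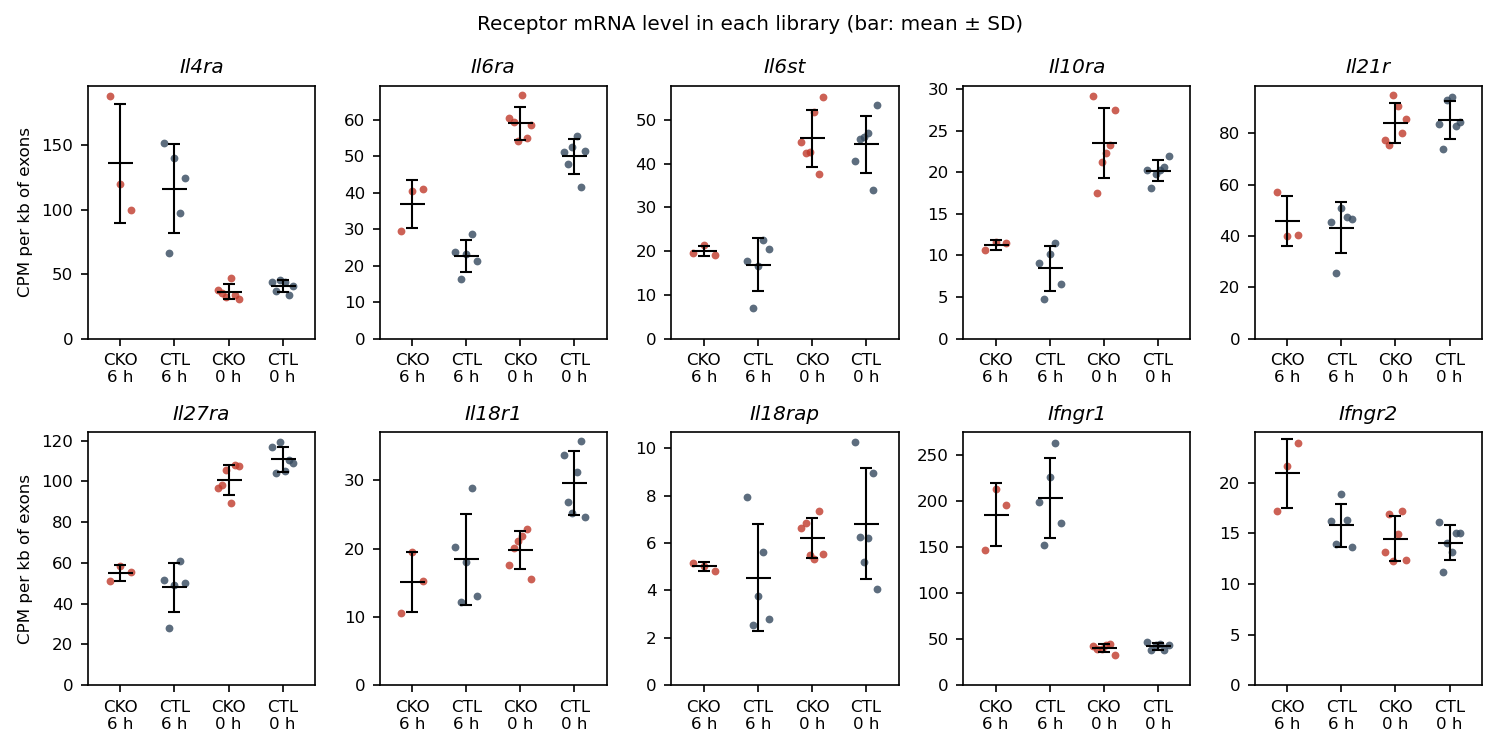
Level of each receptor mRNA in CPM per kb of exons (linear axes from 0) by group, with 1 point per library and bars at the mean ± SD. Ifngr1 and Il4ra are higher in every 6 h library than in any 0 h library of the same genotype, while Il27ra, Il21r, Il6ra, Il6st and Il10ra are lower.

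**Figure D2:**
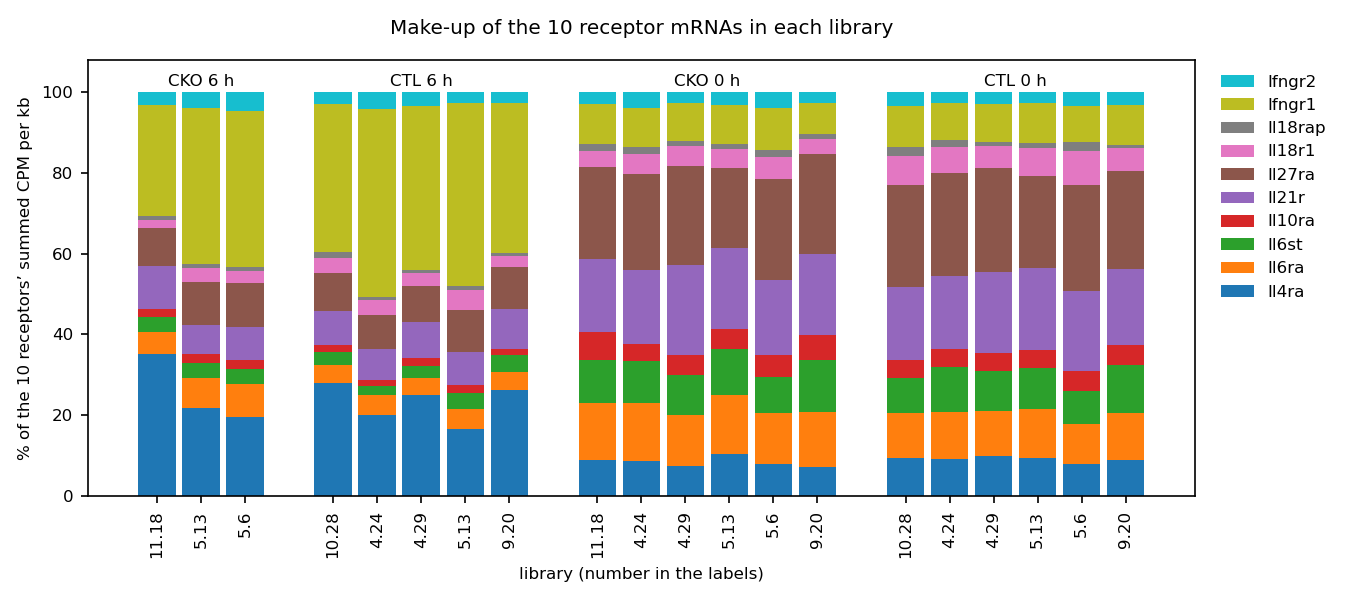
Share of each receptor in the 10 receptors' summed CPM per kb, as a percentage, with 1 stacked bar per library named by the number in its label. Ifngr1 takes 27.4% to 38.7% in CKO and 36.7% to 46.4% in CTL libraries at 6 h, and 7.49% to 10.5% in CKO and 8.96% to 10.2% in CTL libraries at 0 h.

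Stimulation moved most of these receptors, some up and more of them down, in both genotypes. In CKO cells 3 rose and 5 fell at 6 h against 0 h, and in CTL cells 2 rose and 6 fell (edgeR quasi-likelihood test, p adjusted by Benjamini and Hochberg over 28082 genes under 0.05). Over all genes tested, 19.6% were called higher and 13.1% lower in CKO cells, and 41.6% higher and 21.7% lower in CTL cells. The median log2 fold change of the 10 receptors was -0.53 in CKO cells and -0.85 in CTL cells. Over the 28082 genes it was 0.12 in CKO cells and 0.31 in CTL cells, and over the 14189 genes with a mean of at least 1 CPM it was -0.12 in CKO cells and -0.20 in CTL cells. In 8 receptors the 6 h and 0 h libraries of CKO did not overlap, and in 7 receptors those of CTL, against 47% and 29.9% of all genes tested. The T cell markers also fell, 6 of 7 in each genotype, with a median log2 fold change of -0.78 in CKO cells and -0.91 in CTL cells. They summed to 2200 to 2570 CPM in CKO libraries at 6 h, against 4290 to 5350 CPM at 0 h, and to 1750 to 2480 CPM in CTL libraries at 6 h, against 3670 to 4910 CPM at 0 h. The part of that shift in the falls of the receptors was not tested.

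Ifngr1, the chain that binds interferon-gamma, had the largest rise of the 10. It reached 607, 559 and 418 CPM in the 3 CKO libraries at 6 h, against 91.9 to 129 CPM in the 6 CKO libraries at 0 h (median 116). In the CTL libraries it reached 434, 502, 566, 646 and 750 CPM at 6 h, against 107 to 134 CPM at 0 h (median 124). All 6 h libraries were thus far above all 0 h libraries. The log2 fold change was 2.25 ± 0.15 in CKO cells (adjusted p = 4.61e-09) and 2.24 ± 0.13 in CTL cells (adjusted p = 3.32e-10).

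Ifngr2, the signalling chain of the same receptor, moved less than Ifngr1. It had 65.0, 81.6 and 90.1 CPM in CKO libraries at 6 h, against 46.1 to 65.0 CPM at 0 h (median 53.0), and rose by 0.52 ± 0.15 on the log2 scale (adjusted p = 0.0123). That call was lost when the fit held only the groups compared (adjusted p = 0.0568) and in 4 of 20 fits that left out 1 library, where the largest adjusted p was 0.0691 without the CKO 6 h library 5.13. In CTL libraries it had 51.3 to 71.1 CPM at 6 h (median 61.0), against 42.0 to 60.9 CPM at 0 h (median 54.8), with a log2 fold change of 0.17 ± 0.13 (adjusted p = 0.248). In a fit of only the genes with a mean of at least 1 CPM, the CTL change was 0.41 and was called (adjusted p = 0.008).

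Il4ra, the chain shared by the receptors for IL-4 and IL-13, was the other receptor that rose in both genotypes. It reached 598, 720 and 1128 CPM in CKO libraries at 6 h, against 185 to 282 CPM at 0 h (median 208), a log2 fold change of 1.97 ± 0.21 (adjusted p = 1.22e-06). The 5 CTL libraries reached 397, 584, 749, 838 and 912 CPM at 6 h, against 203 to 273 CPM at 0 h (median 252), a log2 fold change of 1.49 ± 0.18 (adjusted p = 2.89e-06). Its neighbour Il21r went the other way. Il21r fell to 132, 134 and 190 CPM in CKO libraries at 6 h, against 251 to 316 CPM at 0 h (median 275), and by 0.79 ± 0.16 on the log2 scale (adjusted p = 0.00115). Among CTL libraries Il21r fell to 85.5, 151, 155, 157 and 169 CPM at 6 h, against 245 to 313 CPM at 0 h (median 279), and by 1.02 ± 0.13 on the log2 scale (adjusted p = 4.52e-06).

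The chains built on gp130 fell together. Il6st encodes gp130, the signalling chain shared by the IL-6 and IL-27 receptors. It fell to 213, 219 and 237 CPM in CKO libraries at 6 h, against 419 to 615 CPM at 0 h (median 487), a log2 fold change of -1.06 ± 0.23 (adjusted p = 0.00211). The CTL libraries fell to 76.7, 185, 197, 228 and 251 CPM at 6 h, against 378 to 594 CPM at 0 h (median 509), a log2 fold change of -1.46 ± 0.19 (adjusted p = 5.16e-06). The lowest of these was the shallow library 4.24, and without it the CTL change was -1.23 on the log2 scale (adjusted p = 1.76e-07).

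Il27ra fell to 178, 193 and 205 CPM in CKO libraries at 6 h, against 312 to 378 CPM at 0 h (median 356), by 0.82 ± 0.16 on the log2 scale (adjusted p = 0.00112). In CTL libraries it fell to 97.2 to 214 CPM at 6 h (median 175), against 364 to 417 CPM at 0 h (median 383), by 1.23 ± 0.14 on the log2 scale (adjusted p = 8.12e-07). Il6ra, the IL-6 binding chain, also fell, to 254, 350 and 354 CPM in CKO libraries at 6 h, against 468 to 577 CPM at 0 h (median 510). Its log2 fold change in CKO cells was -0.62 ± 0.15 (adjusted p = 0.00523), and without the CKO 6 h library 11.18 the adjusted p was 0.0762. In CTL libraries Il6ra fell to 140, 183, 201, 204 and 247 CPM at 6 h, against 358 to 480 CPM at 0 h (median 443), a log2 fold change of -1.16 ± 0.13 (adjusted p = 7.77e-07). For each of these 3 chains every 6 h library lay below every 0 h library of its genotype.

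Il10ra, the IL-10 binding chain, fell as well. It had 37.0, 40.3 and 40.8 CPM in CKO libraries at 6 h, against 61.3 to 102 CPM at 0 h (median 79.9), and a log2 fold change of -1.002 ± 0.21 (adjusted p = 0.00143). The CTL libraries had 16.8, 23.0, 31.8, 35.7 and 40.2 CPM at 6 h, against 63.3 to 76.9 CPM at 0 h (median 70.9), and a log2 fold change of -1.28 ± 0.17 (adjusted p = 6.68e-06). The groups did not overlap in either genotype. B cells and myeloid cells also carry Il10ra, and the 5 B cell markers summed to 17.2 to 71.8 CPM in CKO libraries at 6 h, against 41.5 to 176 CPM at 0 h, and to 14 to 21.9 CPM in CTL libraries at 6 h, against 47.2 to 271 CPM at 0 h. The myeloid markers summed to 41.5 to 125 CPM in CKO and 32.3 to 128 CPM in CTL libraries at 0 h, against the lower sums at 6 h given above. The part of these cells in the fall was not tested.

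The IL-18 receptor chains changed less. Il18r1, the IL-18 binding chain, had 51.0, 73.1 and 93.8 CPM in CKO libraries at 6 h, against 74.8 to 110 CPM at 0 h (median 99.4), with a log2 fold change of -0.40 ± 0.24 (adjusted p = 0.213; adjusted p = 0.0288 with the library number as a block). Il18r1 fell in CTL libraries to 58.3, 63.1, 86.6, 97.3 and 139 CPM at 6 h, against 119 to 172 CPM at 0 h (median 140), by 0.68 ± 0.20 on the log2 scale (adjusted p = 0.0064). Il18rap, the accessory chain needed for signalling, had 32.6, 34.1 and 34.9 CPM in CKO libraries at 6 h, against 35.8 to 49.6 CPM at 0 h (median 41.1), with a log2 fold change of -0.43 ± 0.28 (adjusted p = 0.248). In CTL libraries it had 17.0 to 53.6 CPM at 6 h (median 25.3), against 27.3 to 69.3 CPM at 0 h (median 42.1). The CTL change was -0.52 ± 0.24 on the log2 scale and missed the threshold (adjusted p = 0.0629), but was called with the library number as a block (-0.60, adjusted p = 0.00351). Numbers shared by CTL libraries at both times deviated together, as did those shared by both genotypes at 0 h.

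**Figure D3:**
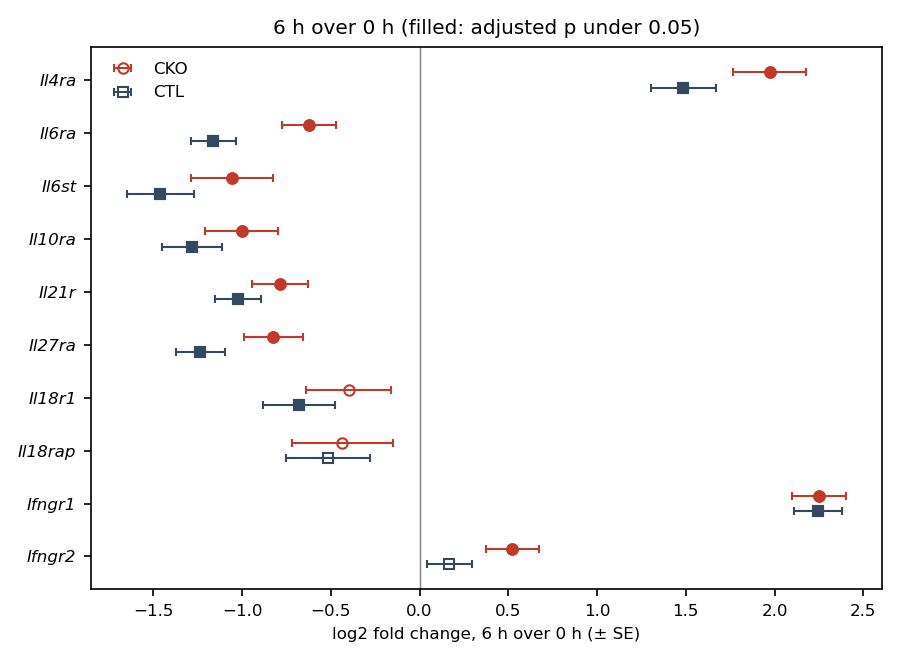
Log2 fold change of each receptor at 6 h over 0 h (points, bars ± SE) in CKO and in CTL cells, with filled symbols where the adjusted p lies under 0.05. Ifngr1 and Il4ra lie at 1.49 or above in both genotypes, and Il6st, Il10ra, Il27ra, Il6ra and Il21r between -1.46 and -0.62.

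The time response was then compared between genotypes. The difference of the log2 fold changes (CKO minus CTL) was above 0 for all 10 receptors, from 0.01 ± 0.21 for Ifngr1 to 0.54 ± 0.20 for Il6ra, with a median of 0.32. None of the 10 was called, nor any of the 28082 genes (0%) with edgeR, DESeq2 or voom. At an unadjusted p under 0.05 edgeR gave 1 of the 10 (Il6ra, adjusted p = 0.465) and 2725 of all genes (9.7%). The median difference was -0.27 over all genes and 0.08 over the 14189 genes with a mean of at least 1 CPM. Without the shallow CTL 6 h library 4.24, Ifngr1 and Il18rap lay below 0 (-0.12 and -0.18), Il6ra was at 0.40 and the median of the 10 was 0.10. With RLE in place of TMM scaling, Ifngr1 also lay below 0 (-0.0039).

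Between genotypes few receptors differed. At 6 h 1 of the 10 receptors, Il6ra, was called between CKO and CTL cells, in a comparison that called 0.292% of all genes tested (0.253% as higher in CKO). Il6ra had 254, 350 and 354 CPM in CKO libraries, against 140, 183, 201, 204 and 247 CPM in CTL libraries. All 3 CKO libraries were above all 5 CTL libraries, which was the case for Il6ra alone among the 10, where 6.69% of all genes did not overlap in either direction. The log2 fold change was 0.71 ± 0.15 (adjusted p = 0.041). The call held in 4 of the 20 fits that left out 1 library, with log2 fold changes from 0.55 to 0.89, and the adjusted p was 0.81 without the CKO 6 h library 5.6 and 0.354 without 5.13. It was also lost with the library number as a block (0.75, adjusted p = 0.153) and in a fit of only the groups compared (adjusted p = 0.652), and was kept by DESeq2 (adjusted p = 0.000186).

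Markers of other cells were measured beside Il6ra at 6 h. The 4 regulatory T cell markers summed to 475 to 691 CPM in CKO libraries and 320 to 483 CPM in CTL libraries, and none was at 0 counts in any library. Il2ra, 1 of the 4, averaged 194 ± 101 CPM in CKO and 176 ± 91.3 CPM in CTL libraries. At 0 h it averaged 23.5 and 16.2 CPM, so the 6 h sums also carry its rise with stimulation. Among the 4 markers Foxp3, the lineage factor of regulatory T cells, averaged 120 ± 23.5 CPM in CKO libraries and 49.1 ± 11.5 CPM in CTL libraries and was called (log2 fold change 1.29 ± 0.27, adjusted p = 0.0488). Their part in the Il6ra difference, and that of the myeloid cells whose marker sums at 6 h stand above, was not tested.

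The other 9 receptors were not called at 6 h, and 2 of them had an unadjusted p under 0.05, as had 12.7% of all genes. Ifngr2 had 65.0, 81.6 and 90.1 CPM in CKO libraries, against 51.3, 52.8, 61.0, 61.7 and 71.1 CPM in CTL libraries, with a log2 fold change of 0.41 ± 0.15 (adjusted p = 0.341). Il10ra had 37.0, 40.3 and 40.8 CPM in CKO libraries, against 16.8 to 40.2 CPM in CTL libraries (median 31.8), with a log2 fold change of 0.42 ± 0.20 (adjusted p = 0.392). The other log2 fold changes lay between -0.29 ± 0.24 for Il18r1 and 0.26 ± 0.22 for Il6st, with adjusted p from 0.484 to 0.764. The median over the 10 receptors was 0.20, against -0.29 over all genes and 0.07 over the genes with a mean of at least 1 CPM. Without the shallow CTL 6 h library 4.24 the median of the 10 was 0.06, with Il6st at 0.07 and Il21r turned to -0.05, and Il6ra was still called (0.62, adjusted p = 0.0291).

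At 0 h none of the 10 receptors was called between CKO and CTL cells, where 0.424% of all genes were. With edgeR 1 of the 10, Il18r1, had an unadjusted p under 0.05, against 7.54% of all genes, and DESeq2 and voom called 0 of them as well. Il18r1 had 74.8, 84.5, 96.9, 102, 105 and 110 CPM in CKO libraries, against 119, 121, 130, 151, 163 and 172 CPM in CTL libraries. These groups did not overlap, which held for 1.93% of all genes. NK cells are known to express this receptor strongly, and the 4 NK cell markers summed to 22.3 to 57.2 CPM in CKO and 35.2 to 79.8 CPM in CTL libraries at 0 h, none at 0 counts in any library. The sums were carried mostly by Eomes, whose fitted log2 fold change was -0.59 ± 0.32. The fitted changes of Ncr1 (1.92 ± 0.72), Gzma (1.01 ± 0.71) and Klrb1c (0.21 ± 0.29) were above 0, and none of the 4 was called. Mean CPM at 0 h was lower in CKO than in CTL libraries for all 4, opposite to the fitted sign for Ncr1, Gzma and Klrb1c. Eomes averaged 22.31 CPM in CKO and 28.97 CPM in CTL libraries, and Klrb1c 6.54 and 10.01 CPM. Ncr1 averaged 1.84 and 2.43 CPM and Gzma 5.06 and 9.7 CPM, with SDs above these means. The part of NK cells in the Il18r1 difference was not tested. The log2 fold change of Il18r1 was -0.57 ± 0.21 (adjusted p = 0.435), and the adjusted p ranged from 0.106 to 0.828 over the alternatives run. Il6ra had 468 to 577 CPM in CKO libraries (median 510) and 358 to 480 CPM in CTL libraries (median 443), with a log2 fold change of 0.18 ± 0.13 (adjusted p = 0.857). Il27ra had 312 to 378 CPM in CKO libraries (median 356) and 364 to 417 CPM in CTL libraries (median 383), with a log2 fold change of -0.21 ± 0.14 (adjusted p = 0.821). For the other 7 the log2 fold changes lay between -0.29 ± 0.19 for Il4ra and 0.14 ± 0.17 for Il10ra. The fitted signs of Il6st (-0.14) and Il18rap (0.12) were opposite to those of the differences in mean CPM. Il6st averaged 509 CPM in CKO and 494 CPM in CTL libraries, and Il18rap 41.9 CPM in CKO and 46.1 CPM in CTL libraries. The median over the 10 was -0.14 (-0.08 when library 4.24 of CTL at 6 h was left out of the fit), against 0.05 over all genes and -0.01 over the genes with a mean of at least 1 CPM.

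**Figure D4:**
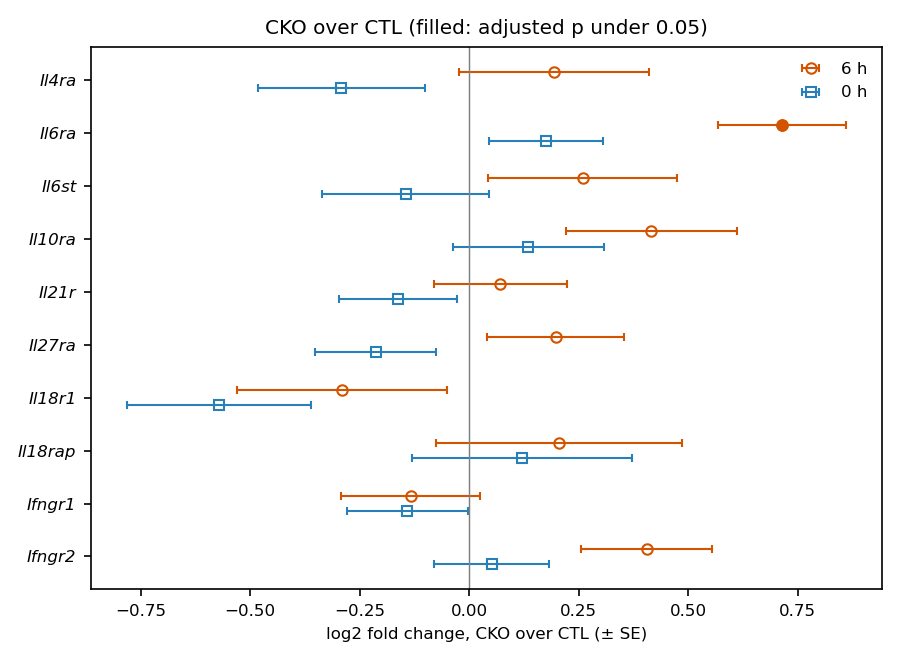
Log2 fold change of each receptor in CKO over CTL cells (points, bars ± SE) at 6 h and at 0 h, with filled symbols where the adjusted p lies under 0.05. Il6ra at 6 h, at 0.71, is the 1 filled symbol, and Il18r1 at 0 h lies lowest at -0.57.

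Chains of 1 receptor were set against each other within each library, as the log2 ratio of counts per kb, which does not depend on library scaling. There were 3 ratios in 4 comparisons, each tested by an exact two-sided permutation test over libraries, with p adjusted over these 12 tests. Ifngr1 over Ifngr2 moved with stimulation. It was 3.30, 3.04 and 3.09 in CKO libraries at 6 h, against 1.21 to 1.69 at 0 h, a difference of 1.66 (exact permutation p = 0.0119, the smallest possible, adjusted p = 0.039). The CTL values were 3.44, 3.59, 3.62, 3.69 and 4.01 at 6 h, against 1.33 to 1.78 at 0 h, a difference of 2.08 (exact permutation p = 0.00216, the smallest possible, adjusted p = 0.026). The binding chain thus exceeded the signalling chain by more at 6 h in every library of both genotypes.

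The same ratio differed between genotypes at 6 h. The 3 CKO values, 3.04 to 3.30, lay below the 5 CTL values, 3.44 to 4.01, a difference of -0.53 on the log2 scale (exact permutation p = 0.0179, the smallest possible, adjusted p = 0.0429). Without 1 of the CTL libraries the groups did not pass in 2 cases (exact permutation p = 0.0571), when 4.29 or 10.28 was left out. At 0 h the difference was -0.11, with values of 1.21 to 1.69 in CKO and 1.33 to 1.78 in CTL libraries (exact permutation p = 0.286).

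Il18r1 over Il18rap was lower in CKO cells at 0 h. Its log2 ratio was 1.41, 1.48, 1.56, 1.63, 1.94 and 2.04 in CKO libraries, against 1.72, 1.99, 2.11, 2.28, 2.33 and 2.61 in CTL libraries, a difference of -0.50 (exact permutation p = 0.013, adjusted p = 0.039). The groups overlapped. Without the CKO libraries 4.24 and 5.6 the difference was -0.45 (exact permutation p = 0.0524), and over the 5 pairs of libraries with the same number it was -0.53 (exact sign-flip p = 0.0625, the smallest possible). At 6 h the ratio averaged 1.54 ± 0.47 in CKO cells and 2.09 ± 0.42 in CTL cells (SD, n = 3 and n = 5; exact permutation p = 0.143). Without the CTL 6 h library 10.28, which stood apart in this ratio, the difference was -0.73 (exact permutation p = 0.0286, not adjusted). No other fit that left out 1 library passed. Over the 8 such fits the difference ranged from -0.75 to -0.29, with an exact permutation p of up to 0.476.

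Il6ra over Il6st rose with stimulation in CKO cells. The log2 ratio was 0.58, 0.92 and 1.10 in CKO libraries at 6 h, against 0.08 to 0.54 at 0 h, a difference of 0.49 (exact permutation p = 0.0119, the smallest possible, adjusted p = 0.039). In CTL libraries it was 0.05 to 1.23 at 6 h, against -0.06 to 0.33 at 0 h, a difference of 0.33 (exact permutation p = 0.0823), and the highest value was that of the shallow library 4.24. Without the CTL 6 h library 9.20 the CTL difference was 0.44 (exact permutation p = 0.00476). Between genotypes the ratio differed by 0.37 at 6 h (exact permutation p = 0.25) and by 0.20 at 0 h (exact permutation p = 0.0541, adjusted p = 0.108). Without library 4.24 the difference at 6 h was 0.55 (exact permutation p = 0.0286). The difference at 0 h was 0.26 without the CKO library 9.20 (exact permutation p = 0.00433) and 0.23 without the CTL library 10.28 (exact permutation p = 0.0433). These p with 1 library left out are not adjusted. The other such fits of the genotype differences and of the CTL change over time did not pass. Their largest exact permutation p was 0.524 between genotypes at 6 h, 0.11 at 0 h and 0.224 over time in CTL cells.

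**Figure D5:**
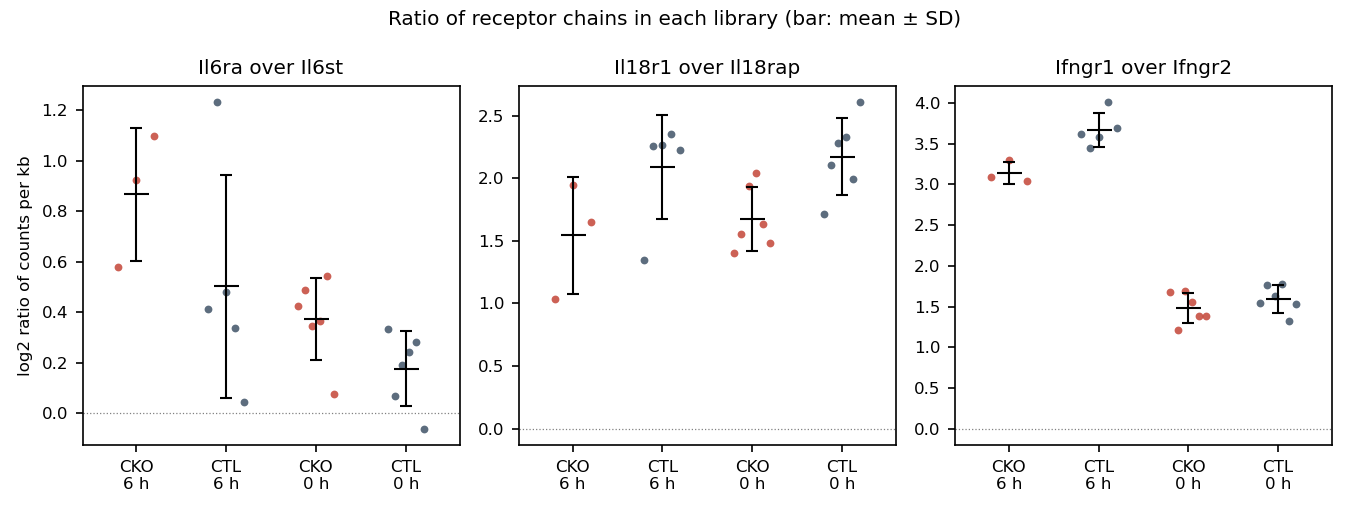
Log2 ratio of counts per kb of the chains of 1 receptor (linear axis, dotted line at 0), with 1 point per library and bars at the mean ± SD. Ifngr1 over Ifngr2 lies between 3.04 and 4.01 at 6 h and between 1.21 and 1.78 at 0 h, and is lower in the 3 CKO than in the 5 CTL libraries at 6 h.

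Other genes of these pathways were counted over whole lists. With edgeR none of the 23 partner chains and other cytokine receptors tested was called between genotypes, where 9 at 6 h and 8 at 0 h had an unadjusted p under 0.05, as did 12.7% of all genes at 6 h and 7.54% at 0 h. With stimulation 2 rose and 7 fell in CKO cells (all genes, 19.6% and 13.1%), and 3 rose and 11 fell in CTL cells (all genes, 41.6% and 21.7%). Il12rb2, the inducible chain of the IL-12 receptor, rose by 2.57 ± 0.30 (log2) in CKO cells (adjusted p = 4.49e-06) and by 2.51 ± 0.28 in CTL cells (adjusted p = 8.15e-07). Il9r, the IL-9 receptor, fell to 4.60 ± 2.13 CPM in CKO cells at 6 h, against 32.8 ± 3.99 CPM at 0 h, and to 2.91 ± 0.88 CPM in CTL cells, against 25.4 ± 8.78 CPM at 0 h. Il10rb, the partner of Il10ra, fell by 0.64 ± 0.10 in CKO cells and by 0.75 ± 0.08 in CTL cells on the log2 scale. Il2rg, the common gamma chain that partners Il4ra and Il21r, was not called with stimulation and changed by -0.19 ± 0.10 in CKO cells (adjusted p = 0.167) and -0.16 ± 0.09 in CTL cells (adjusted p = 0.107). Il7r, the IL-7 receptor chain, averaged 307 ± 42.2 CPM in CKO and 493 ± 37.5 CPM in CTL cells at 0 h, and its log2 fold change of -0.74 ± 0.17 missed the threshold (adjusted p = 0.0526).

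Of the 9 JAK and STAT genes listed, edgeR called none between genotypes, and 2 at 6 h and 0 at 0 h had an unadjusted p under 0.05 (all genes, 12.7% and 7.54%). With stimulation 5 rose and 0 fell in CKO cells, where 19.6% of all genes rose and 13.1% fell. In CTL cells 4 rose and 3 fell, where 41.6% of all genes rose and 21.7% fell. Jak2, the kinase bound to Ifngr2, rose by 1.30 ± 0.22 in CKO cells (adjusted p = 0.000245) and by 1.10 ± 0.19 in CTL cells (adjusted p = 8.04e-05) on the log2 scale. Jak3, the kinase of the common gamma chain, fell by 1.12 ± 0.23 in CTL cells (adjusted p = 0.000431) and changed by -0.64 ± 0.28 in CKO cells (adjusted p = 0.0857). The difference between these changes was 0.48 ± 0.36 (adjusted p = 0.506).

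Of the 9 genes of IL-18 signalling, edgeR called none between genotypes (5 at 6 h and 3 at 0 h had an unadjusted p under 0.05, against 12.7% and 7.54% of all genes). With stimulation 3 rose and 2 fell in CKO cells (all genes, 19.6% and 13.1%), and 1 rose and 5 fell in CTL cells (all genes, 41.6% and 21.7%). Il18bp, a secreted decoy that binds IL-18, rose to 14.7 ± 1.86 CPM in CKO cells, against 6.57 ± 0.88 CPM at 0 h, and to 17.4 ± 2.37 CPM in CTL cells, against 9.11 ± 1.32 CPM at 0 h. Sigirr, an inhibitory receptor of the same family, fell by 0.63 ± 0.16 in CKO cells (adjusted p = 0.00643) and by 0.98 ± 0.13 in CTL cells (adjusted p = 8.37e-06) on the log2 scale. Among the 9 ligands, none was called between genotypes by edgeR (2 at 6 h and 2 at 0 h had an unadjusted p under 0.05, against 12.7% and 7.54% of all genes). With stimulation 4 rose and 1 fell in CKO cells (all genes, 19.6% and 13.1%), and 5 rose and 1 fell in CTL cells (all genes, 41.6% and 21.7%). Il4 reached 9.48 ± 2.04 CPM in CKO cells at 6 h, against 3.15 ± 1.19 CPM at 0 h, and 22.1 ± 12.6 CPM in CTL cells, against 2.00 ± 0.49 CPM at 0 h. Ifng reached 26.0 ± 25.9 CPM in CKO cells, against 7.63 ± 3.53 CPM at 0 h, and 34.5 ± 8.94 CPM in CTL cells, against 8.05 ± 2.40 CPM at 0 h. Of the 2 proteases that shed receptors such as Il6ra from the cell surface, Adam17 fell by 0.35 ± 0.10 in CTL cells (adjusted p = 0.00688), and neither was called in CKO cells or between genotypes.

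The genes whose log2 CPM followed 9 of the receptors most closely over the 20 libraries were named from 8679 protein-coding candidates with a mean of at least 10 CPM. The libraries share 2 times and 2 genotypes, so these correlations mostly follow stimulation and are given as a description. Ifngr1 was most like Igtp (Pearson r = 0.988) and Gbp7 (0.985), GTPases of the immunity-related and guanylate-binding families. Il4ra was most like Sh3bp5 (0.977) and Bcl2l11 (0.969), which encodes the pro-apoptotic factor Bim. Il6st was closest to Lrrfip1 (0.988), Il10ra to Ptpre (0.978), Il21r to Ubtf (0.977) and Il27ra to Adcy7 (0.994). Il18r1 was closest to Qprt (0.891), Ifngr2 to Slc25a3 (0.855) and Il18rap to Kdm5c (0.776).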

How the data were processed

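RNA-seq was analysed in 20 libraries. Gene-level counts came as 1 table of whole numbers that the authors deposited without normalization. Tools listed in the submitters' processing notes are featureCounts from Subread 1.5.2, STAR 2.5.2b and Trimmomatic 0.36, on the build GRCm38, with no settings. Per the labels' protocols, libraries were stranded and poly(A)-selected. IDs were matched to GENCODE M21 (49056 of 49315). Counts were tested with edgeR 4.0.16 (R 4.3.3): filterByExpr (minimum count 10, total 15) kept 28082 genes, TMM scaling, and a robust quasi-likelihood fit of 4 groups and the labelled sex over all 20 libraries. Values after ± are SE for log2 fold changes and SD for levels. Correlations used log2 CPM with a pseudocount of 0.5. Chain ratios were tested by exact two-sided permutation (12 tests, Benjamini-Hochberg), in Python 3.11.15.

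The fit was tested on simulated counts. Alternatives were RLE factors, other filters, DESeq2 1.42.0, limma 3.58.1 voom, other sex terms, a block on the label number, and libraries left out. No 2 libraries were copies (43 pairs, chi-square per degree of freedom 21.5 to 302). Same-number libraries deviated together between genotypes at 0 h (r = 0.236 to 0.703, 5 pairs) and between times in CTL (0.248 to 0.528, 5 pairs), not in all 3 CKO pairs over time (0.0935 to 0.506). The labels do not say whether a number marks an animal, litter or day, so p-values measure the spread between these samples. The receptors and lists were chosen with earlier results of these data known. Genes named from a list were those called with the smallest adjusted p (up to 4), or else the 2 most abundant; most alike genes were taken by Pearson r. Some genes that this rule names are not reported here.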

Additional observations from a re-analysis of the deposited data

Results flagged for a closer look

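In each group of 5 or 6 libraries, the 10 receptor levels and 3 chain ratios were checked for a library far from the rest. Of 39 such groups, 2 held one, and chance alone gives about 1 in 20. Il21r stood at 85.5 CPM in the CTL 6 h library 4.24, the shallow one, where the other 4 CTL libraries had 151 to 169 CPM. The log2 ratio of Il18r1 over Il18rap stood at 1.35 in the CTL 6 h library 10.28, where the other 4 had 2.22 to 2.35.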

How the results depend on the processing

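Of 1590 refits of the 10 receptors' log2 fold changes over the 5 comparisons, 1510 kept their direction and their side of the threshold, 26 lost a call, 15 gained one and 39 changed sign, all of the last among values that were not called. None of these causes was tested. The call of Il6ra at 6 h was lost (0 of 10 receptors called) with the label number as a replicate block, with and without the sex term, with only the groups compared and without the 0 h CKO libraries 4.24 and 5.6, and leaving out 1 library gave 0 to 1 called receptors. The numbers of genes called over all genes moved more. At 0 h, where 119 genes were called, it was 421 with DESeq2, 255 with voom, 198 with no sex term, 223 with sex read from Xist, 290 with the block, 220 with the block and no sex term, 200 with only the groups compared, and 49 to 283 with 1 library left out. At 6 h, where 82 were called, it was 126 over genes of at least 1 CPM, 432 with DESeq2, 52 and 46 with the block (with and without the sex term), 8 with only the groups compared, and 16 to 212 with 1 library left out. For 6 h against 0 h in CTL cells (17791 called) it was 7417 over genes of at least 1 CPM, and in CKO cells (9203 called) 4836, with 4848 to 12042 when 1 library was left out. An alternative chosen after seeing the data, without the CTL 6 h library 4.24 and with sex read from Xist, called 590 genes at 0 h, 153 at 6 h and 14132 for CKO over time.

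Sign changes at 0 h were to 0.0438 (no sex term), 0.0492 (block, no sex term) and 0.0059 (added alternative) for Il6st. For Il18rap they were to -0.1386 (no sex term), -0.0422 (sex from Xist), -0.0347 (block), -0.0026 (without the 2 CKO libraries), -0.0141 (added alternative) and -0.0236 to 0.2164 with 1 library left out, and for Ifngr2 to -0.0493 (block), -0.1049 (without the 2 CKO libraries) and -0.0154 to 0.0851. At 6 h Il21r went to -0.0207 (genes of at least 1 CPM), -0.0514 (added alternative) and -0.0596 to 0.2059 with 1 library left out, where Il4ra ranged from -0.0578 to 0.3876 and Ifngr1 from -0.249 to 0.0415. For the difference of responses, Il21r went to -0.0025 (added alternative) and Il18rap to -0.0035 (genes of at least 1 CPM) and -0.1836 to 0.4206, and Il18r1 ranged from -0.0013 to 0.5269. Ifngr1 there went to -0.0039 (RLE and DESeq2), -0.1135 (genes of at least 1 CPM), -0.038 (voom), -0.0625 (no sex term), -0.0524 (sex from Xist), -0.0291 (block), -0.1373 (block, no sex term), -0.1514 (added alternative) and -0.116 to 0.2129.

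Among the chain ratios, a paired test over same-number libraries (replicate block) cannot pass the threshold with 5 or 3 pairs. It gave 0.4235 for Il6ra over Il6st, 6 h against 0 h in CKO cells, -0.532 for Il18r1 over Il18rap between genotypes at 0 h, and 2.0221 and 1.6035 for Ifngr1 over Ifngr2 over time in CTL and CKO cells. Without the CKO libraries 4.24 and 5.6 the Il18r1 over Il18rap difference was -0.454. With 1 library left out, Ifngr1 over Ifngr2 between genotypes at 6 h ranged from -0.607 to -0.444 and Il18r1 over Il18rap from -0.7462 to -0.2889, and over time Il18r1 over Il18rap ranged from -0.3335 to 0.1238 in CKO and -0.1735 to 0.1035 in CTL cells. Il6ra over Il6st ranged from 0.2499 to 0.5473 between genotypes at 6 h, 0.1499 to 0.2564 at 0 h and 0.1435 to 0.4399 over time in CTL cells.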
